A study of Mus musculus with 6 samples.

Results

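The genes that encode the CD3 chains and the constant regions of the alpha-beta T cell receptor were followed in lymphocytes sorted from the mouse mammary gland. They were taken by symbol and comprise the 4 CD3 chain genes Cd3d, Cd3e, Cd3g and Cd247 and the 3 constant genes Trac, Trbc1 and Trbc2, 7 of the 55450 genes in the count table. All 7 passed the filter on low counts, which left 13171 genes for testing. The study asked whether unconventional lymphocytes of the mammary epithelium influence the differentiation of epithelial and basal cells. DN NK1.1+ lymphocytes have 3 bulk RNA libraries. DN stands for double negative, and the labels name neither the pair of absent markers nor a strain. The labels call the DN NK1.1+ cells lymphocytes in one field and T cells in another. CD8 beta+ T cells also have 3 libraries. Cells of both groups came from the mammary gland late in pregnancy (E18.5), and no treatment or genetic change is given for either. Whether libraries of a group came from separate mice is not stated, so the p-values describe variation between libraries that could be purely technical.

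The T cell receptor recognises antigen through a clonal pair of chains, alpha with beta or gamma with delta, whose constant regions anchor them in the membrane. These chains have almost no cytoplasmic part. The signal is carried by CD3 delta, CD3 epsilon and CD3 gamma, encoded by Cd3d, Cd3e and Cd3g, and by CD3 zeta, encoded by Cd247, through tyrosine motifs in their tails. Gamma-delta receptors use the same CD3 chains, although in the mouse CD3 delta is largely left out of their surface complex. CD3 zeta also serves receptors of natural killer (NK) cells such as NKp46.

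Libraries held between 7961360 and 14367299 counts. Values are given as CPM, the counts of a gene scaled to a common library size with TMM factors, which assume that most genes do not differ, and fold changes are DN NK1.1+ over CD8 beta+ on the log2 scale. Of the sort markers, Cd8b1, for CD8 beta, was at 1.21 to 4.31 CPM in DN NK1.1+ and 891.9 to 1007 CPM in CD8 beta+ libraries, and Klrb1c, for NK1.1, was at 617.6 to 659 CPM in DN NK1.1+ and 30.8 to 41.8 CPM in CD8 beta+ libraries. Cd8a, for CD8 alpha, was lower but present in the double negative cells, at 150.9 to 174.1 CPM in DN NK1.1+ and 852.3 to 1009 CPM in CD8 beta+ libraries. Cd4 was at 0.91 to 2.24 CPM in DN NK1.1+ and 0.26 to 5.05 CPM in CD8 beta+ libraries. Of 7 NK cell markers 6 rose and 0 fell, where 7.84% of all tested genes rose. The 7 include Klrb1c, whose difference was set by the sort. These markers, led by Gzma (mean 1650 CPM in DN NK1.1+), summed to 3000 to 3260 CPM in DN NK1.1+ and 452 to 529 CPM in CD8 beta+ libraries. Their part in the changes of the receptor genes was not tested. In such bulk samples, fewer cells that carry a transcript and less of it per cell cannot be told apart.

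Transcripts of the alpha-beta receptor complex were lower in DN NK1.1+ lymphocytes but remained abundant, and the decrease was unequal between its chains. Of the 7 genes 6 fell and 0 rose at an adjusted p under 0.05 in the quasi-likelihood test of edgeR (Benjamini-Hochberg over all genes tested), where 5.99% of all tested genes fell and 7.84% rose. In the same 6 genes the libraries of the groups did not overlap, as in 30.6% of all tested genes in either direction. The alpha constant gene Trac had the largest decrease of the 7, with a log2 fold change of -1.43. The CD3 gamma gene Cd3g did not pass the test. The median log2 fold change of the 7 genes was -0.87, against -0.003 over all tested genes.

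**Figure D1:**
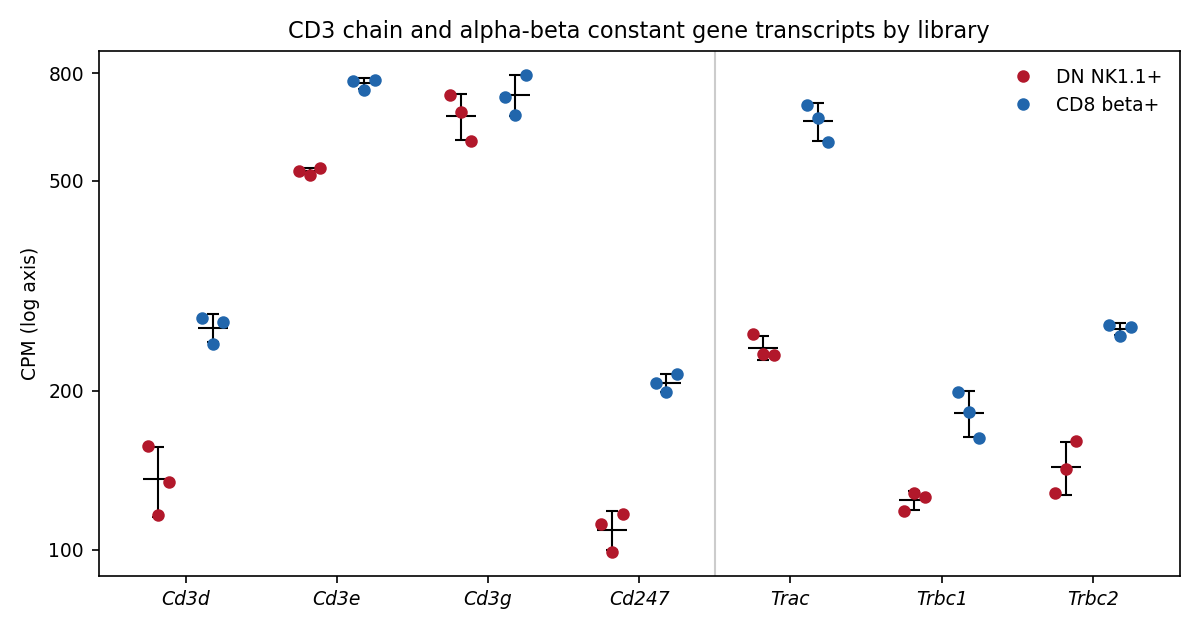
CPM of the 7 genes (log axis) in each library, with 3 DN NK1.1+ libraries in red left of 3 CD8 beta+ libraries in blue; black marks are means with SD. In Cd3g alone the groups overlap; Trac shows the widest gap, at 233.5 to 256.4 CPM in DN NK1.1+ and 592.9 to 696.9 CPM in CD8 beta+ libraries.

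The receptor constant genes come first in the order of recognition. Trac encodes the only constant region of the alpha chain and lies on chromosome 14 of build mm10, from 54220521 to 54224206 on the plus strand. It had 256.4, 234.5 and 233.5 CPM in the DN NK1.1+ libraries, against 696.9, 656.6 and 592.9 CPM in the CD8 beta+ libraries. Every DN NK1.1+ library was below every CD8 beta+ library, which held for 14.6% of all tested genes. The decrease was 2.69-fold (log2 fold change -1.43, SE 0.0977, edgeR adjusted p = 7.89e-08), and 2.95% of all tested genes had a lower fold change.

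Trbc1 and Trbc2 are alternative constant genes of the beta chain, used by rearrangements to their own joining segments. They lie in tandem on the plus strand of chromosome 6, Trbc1 from 41538218 to 41539881 and Trbc2 from 41546730 to 41548352. Trbc1 had 118.1, 128.1 and 125.8 CPM in DN NK1.1+ libraries and 198.9, 182.6 and 163 CPM in CD8 beta+ libraries (log2 fold change -0.55, SE 0.1, edgeR adjusted p = 0.00142). Trbc2 had 127.8, 142.1 and 160.8 CPM in DN NK1.1+ libraries and 267.1, 254.1 and 264.3 CPM in CD8 beta+ libraries (log2 fold change -0.87, SE 0.101, edgeR adjusted p = 2.40e-05). The groups did not overlap in either gene.

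The values of Trbc1 and Trbc2 are uncertain one by one, because the genes are close copies and the way in which shared reads were assigned is not given in the sources used here. Over 518 coding bases of their annotated transcripts, aligned without gaps, 23 differed, an identity of 95.6%. The first difference is at base 260 and the next at base 383, counted from the start of the annotated constant region. Of all windows of 50 bases in the Trbc1 transcript, 41.1% occur unchanged in Trbc2, and 44% the other way. The stretch shown, bases 361 to 518 of both, holds 22 of the differences, which are in capitals.
Trbc1: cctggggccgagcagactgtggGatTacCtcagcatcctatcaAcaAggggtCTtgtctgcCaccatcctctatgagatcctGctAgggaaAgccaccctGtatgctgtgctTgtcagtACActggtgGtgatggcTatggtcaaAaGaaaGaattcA
Trbc2: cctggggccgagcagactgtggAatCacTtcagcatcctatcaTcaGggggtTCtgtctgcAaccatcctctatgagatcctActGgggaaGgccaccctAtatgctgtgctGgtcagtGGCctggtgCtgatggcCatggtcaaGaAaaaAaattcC

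Trbc1 took 48%, 47.4% and 43.9% of the beta constant counts in DN NK1.1+ libraries and 42.7%, 41.8% and 38.1% in CD8 beta+ libraries. The groups did not overlap. An exact two-sided permutation test gave p = 0.1, the smallest value that 3 against 3 libraries allow, and 0.135 after adjustment over the 23 ratios computed. If shared reads were split between the genes, the sum of both does not depend on how. If such reads were discarded, the sum is too low. Beta constant counts were 0.959, 1.15 and 1.23 times the Trac counts in DN NK1.1+ libraries and 0.669, 0.665 and 0.721 times in CD8 beta+ libraries, so that all DN NK1.1+ libraries had more beta relative to alpha constant counts than any CD8 beta+ library. The mean log2 difference was 0.69 (exact p = 0.1, adjusted p = 0.135). In a fit across all genes with Trac counts as the scale, Trbc1 and Trbc2 were higher relative to Trac (log2 0.88 and 0.56, edgeR adjusted p = 5.37e-06 and 0.00133), as were 79.5% of all tested genes.

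Cd3e encodes CD3 epsilon, which pairs with both CD3 delta and CD3 gamma. It lies on the minus strand of chromosome 9, from 44998740 to 45009627. It had 522.8, 513.7 and 528.5 CPM in DN NK1.1+ libraries and 774.9, 742.5 and 777.2 CPM in CD8 beta+ libraries, with a narrow range in both groups and no overlap. The log2 fold change was -0.55 (SE 0.088, edgeR adjusted p = 4.56e-04).

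Cd3d and Cd3g are neighbours on chromosome 9 that are read in opposite directions. Cd3d lies on the plus strand from 44981786 to 44987339 and Cd3g on the minus strand from 44969572 to 44980431, with 1355 bases between their annotated starts. Cd3d had 156.9, 116.2 and 134.3 CPM in DN NK1.1+ libraries and 274.8, 245 and 270.5 CPM in CD8 beta+ libraries (log2 fold change -0.96, SE 0.113, edgeR adjusted p = 2.55e-05). Cd3g had 726.4, 673.9 and 594.4 CPM in DN NK1.1+ libraries and 721.8, 667.9 and 795.1 CPM in CD8 beta+ libraries. Cd3d thus stood apart between the groups, while in Cd3g the highest DN NK1.1+ library lay above all but 1 of the CD8 beta+ libraries. The log2 fold change of Cd3g was -0.13 (SE 0.105, edgeR adjusted p = 0.501), with a 95% interval (normal approximation) from -0.34 to 0.07.

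Within each library, Cd3g counts were 4.63, 5.8 and 4.42 times the Cd3d counts in DN NK1.1+ libraries and 2.63, 2.73 and 2.94 times in CD8 beta+ libraries. The ratio was 1.78-fold higher in DN NK1.1+ libraries without overlap (exact permutation p = 0.1, adjusted p = 0.135). The promoter windows of these neighbours, from 250 bases before to 50 after the start in RefSeq on GRCm38.p6, are shown because the genes share a locus but not a fold change. They are at chr9:44980382-44980681 on the minus strand for Cd3g and at chr9:44981536-44981835 on the plus strand for Cd3d, and do not overlap. Capitals mark matches to short motifs, searched on either strand. The site of ETS factors was searched as GGAAG, which is longer than their core GGAA. The site of RUNX factors was searched as TGTGGT, and the site of TCF and LEF factors as CTTTGA. For factors of the GATA family the letters were AGATAA, and for the TATA box they were TATAAA.
Cd3g: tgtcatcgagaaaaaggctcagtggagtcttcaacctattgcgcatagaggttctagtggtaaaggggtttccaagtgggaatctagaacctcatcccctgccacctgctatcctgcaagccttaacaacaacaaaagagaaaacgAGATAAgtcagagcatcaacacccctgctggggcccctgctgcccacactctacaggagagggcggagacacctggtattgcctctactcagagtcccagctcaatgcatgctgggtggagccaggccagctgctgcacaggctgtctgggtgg
Cd3d: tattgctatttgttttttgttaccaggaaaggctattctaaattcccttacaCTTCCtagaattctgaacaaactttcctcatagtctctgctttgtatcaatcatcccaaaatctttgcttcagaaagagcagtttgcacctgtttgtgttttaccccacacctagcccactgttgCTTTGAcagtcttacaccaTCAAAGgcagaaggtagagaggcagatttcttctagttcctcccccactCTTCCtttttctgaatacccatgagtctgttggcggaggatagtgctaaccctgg

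The Cd3g window holds 1 match to the GATA letters and 0 to the others. The Cd3d window holds 2 matches to the ETS letters and 2 to the TCF and LEF letters. Both windows also hold the shorter ETS core GGAA outside these matches, which was not searched. No match overlaps another in either window. Of 32851 promoter windows of this length, 71.4% hold the ETS letters, 16% the TCF and LEF letters, 11.2% the GATA letters, 16.8% the RUNX letters and 13.6% the TATA letters. In the windows of Cd3e and Cd247 there were 3 and 2 ETS matches, and 0 and 1 TCF and LEF matches. A match is a match of letters only, and binding was not measured. RefSeq windows were matched for these 4 genes, and the constant genes are used here without one.

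Cd247, for CD3 zeta, lies on the plus strand of chromosome 1 from 165788681 to 165877277. It had 111.6, 99.0 and 116.6 CPM in DN NK1.1+ libraries and 207.3, 199 and 214.9 CPM in CD8 beta+ libraries, with no overlap. The log2 fold change was -0.92 (SE 0.0974, edgeR adjusted p = 8.52e-06). Exons of Pou2f1 on the opposite strand cover 56.4% of the annotated exon bases of Cd247. Whether counting used strand is not given, so reads of Pou2f1 may be among these counts. Pou2f1 itself was at 41.7 CPM in DN NK1.1+ and 47.1 CPM in CD8 beta+ libraries.

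**Figure D2:**
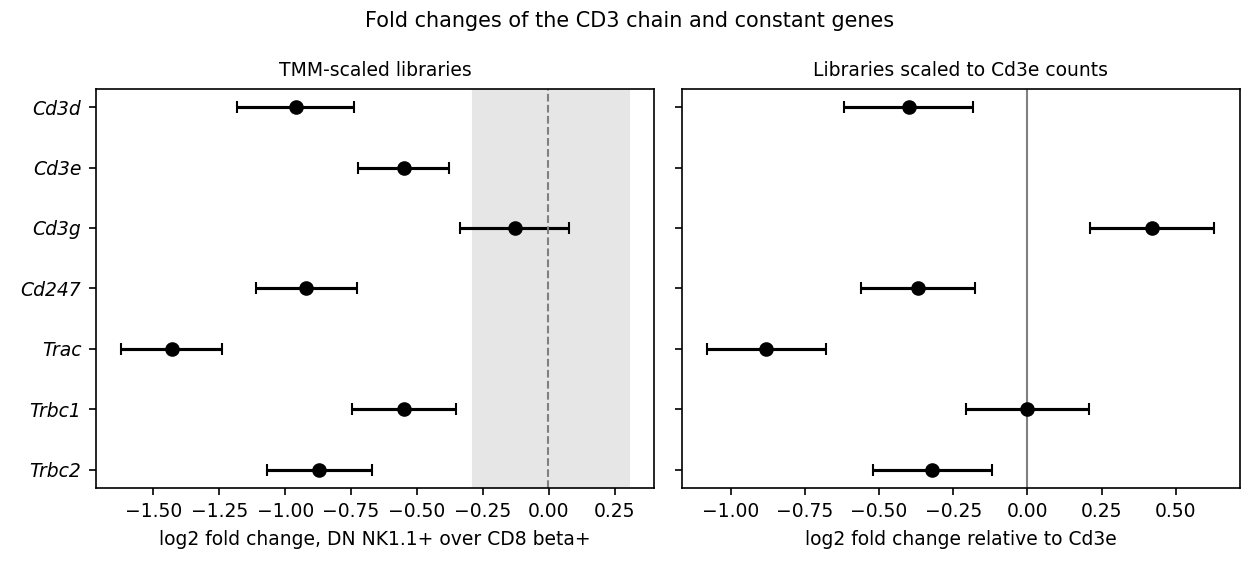
Log2 fold changes of DN NK1.1+ over CD8 beta+ libraries, with bars of 95% intervals, for libraries scaled by TMM (left; the dashed line is the median and the grey band the middle quartiles of all tested genes) and relative to Cd3e counts (right; Cd3e itself has no value). On the left, Cd3g at -0.13 lies within the grey band and the other genes lie below it; on the right, Cd3g is above 0 and Cd3d, Cd247, Trac and Trbc2 are below 0.

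The CD3 chains therefore differed among themselves in how much they fell. This was examined in a fit across all genes with the Cd3e counts of each library as the scale, an analysis added after the values had been seen. Relative to Cd3e, Cd3g was higher (log2 0.42, SE 0.107, edgeR adjusted p = 0.00459), as were 45.9% of all other tested genes. Cd3d and Cd247 were lower relative to Cd3e (log2 -0.40 and -0.37, edgeR adjusted p = 0.00749 and 0.00565), as were 2.2% of the other genes. The ratio between these 2 genes was not seen to differ, with Cd3d counts 1.41, 1.17 and 1.15 times the Cd247 counts in DN NK1.1+ libraries and 1.33, 1.23 and 1.26 times in CD8 beta+ libraries. The groups overlapped (exact permutation p = 0.7, mean log2 difference -0.04, pooled SD 0.118).

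Levels of different genes were compared per kilobase of the annotated principal transcript, or of the longest one for the constant genes. In DN NK1.1+ libraries the order was Cd3g (650.0 ± 65.0 CPM per kilobase, SD, n = 3), Cd3e (357 ± 5.11), Trac (258 ± 13.8), Trbc2 (207 ± 23.9), Trbc1 (168 ± 7.11), Cd3d (84.0 ± 12.6) and Cd247 (66.8 ± 5.54). In CD8 beta+ libraries the order was Cd3g (712 ± 62.4), Trac (694 ± 56.1), Cd3e (523 ± 13.3), Trbc2 (378 ± 9.86), Trbc1 (246 ± 24.4), Cd3d (163 ± 9.94) and Cd247 (127 ± 4.89). Trac thus ranked above Cd3e in CD8 beta+ and below it in DN NK1.1+ libraries. In the CD8 beta+ order the values of Cd3g and Trac overlapped, and in the DN NK1.1+ order every neighbouring pair had separate ranges. The order depends on the length used: per kilobase of all annotated exons, Trac ranked first and Cd247 last in both groups.

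The proportion of CD3 chain to alpha-beta constant transcripts was higher in DN NK1.1+ lymphocytes. Counts of the 4 CD3 chains together were 3.02, 2.78 and 2.64 times the summed counts of Trac, Trbc1 and Trbc2 in DN NK1.1+ libraries, against 1.7, 1.7 and 2.02 times in CD8 beta+ libraries. All DN NK1.1+ libraries were above all CD8 beta+ libraries. The ratio was 1.56-fold higher (mean log2 difference 0.64, pooled SD 0.123, n = 3 per group, exact permutation p = 0.1, adjusted p = 0.135). Library scaling cancels in such a ratio. With each count taken per kilobase of transcript first, the mean log2 difference was 0.66.

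By chain, the ratio to the alpha-beta constant counts was 1.45, 1.34 and 1.14 for Cd3g in DN NK1.1+ libraries and 0.621, 0.611 and 0.779 in CD8 beta+ libraries. For Cd3e it was 1.04, 1.02 and 1.02 in DN NK1.1+ libraries and 0.666, 0.679 and 0.762 in CD8 beta+ libraries. Both chains separated the groups. For Cd3d it was 0.312, 0.23 and 0.258 in DN NK1.1+ libraries and 0.236, 0.224 and 0.265 in CD8 beta+ libraries. For Cd247 it was 0.222, 0.196 and 0.224 in DN NK1.1+ libraries and 0.178, 0.182 and 0.211 in CD8 beta+ libraries. Cd3d and Cd247 overlapped between the groups (exact permutation p = 0.5 and 0.2).

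**Figure D3:**
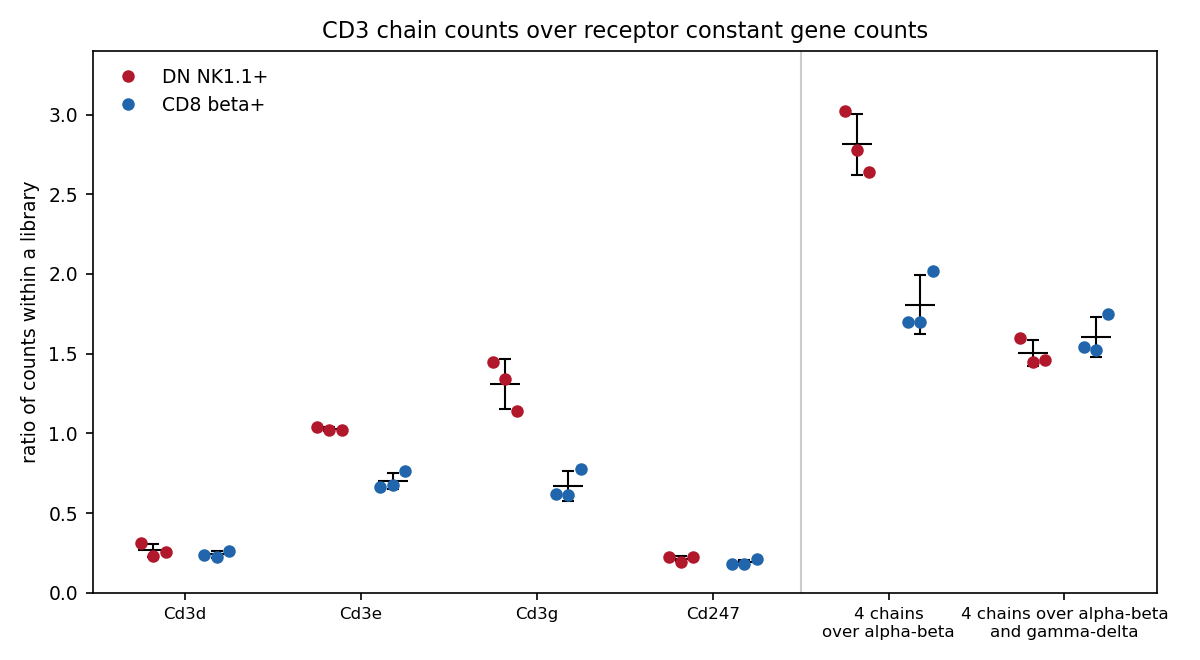
Counts of each CD3 chain gene, and of all 4 together, divided by receptor constant gene counts of the same library, with 3 DN NK1.1+ libraries in red left of 3 CD8 beta+ libraries in blue and black means with SD. The groups separate for Cd3e, Cd3g and the 4 chains over alpha-beta constants, and overlap for Cd3d, Cd247 and the 4 chains over alpha-beta plus gamma-delta constants.

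The same comparison was fitted across all genes with the alpha-beta constant counts as the scale of each library. Relative to them, Cd3g was higher by 0.96 (SE 0.131, edgeR adjusted p = 7.66e-06) and Cd3e by 0.55 (SE 0.11, edgeR adjusted p = 3.27e-04) on the log2 scale. Cd3d, at 0.14 (interval -0.12 to 0.40, edgeR adjusted p = 0.333), and Cd247, at 0.17 (interval -0.07 to 0.41, edgeR adjusted p = 0.209), did not pass. Because the constant genes themselves fell, 72.7% of all tested genes were higher relative to them, with a median of 1.09. A count of 2 of 4 CD3 chains is below that share, and all 4 chains lay below that median.

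Which constant gene served as the denominator mattered. In the fit with Trac counts as the scale all 4 chains were higher, as were 79.5% of all tested genes. Over Trac alone, all 4 chains had higher ratios in every DN NK1.1+ library than in any CD8 beta+ library, with mean log2 differences of 0.46 for Cd3d, 0.87 for Cd3e, 1.29 for Cd3g and 0.50 for Cd247. Over Trbc1 and Trbc2 together they were -0.23 for Cd3d, 0.18 for Cd3e, 0.60 for Cd3g and -0.20 for Cd247, and the groups overlapped for Cd3d and Cd247. In signed value, the order over either denominator was Cd3g first and Cd3e next. A change of denominator shifts all 4 chains by the same amount, so this order could not change. In size, Cd3e had the smallest difference of the 4 over Trbc1 and Trbc2.

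The gamma-delta constant genes, which encode constant regions of the other receptor that uses CD3 chains, rose in the same libraries. Of 5 tested, 4 rose and 0 fell, where 7.84% of all tested genes rose. Trdc, the delta constant gene, was at 85.17, 100.8 and 79.04 CPM in DN NK1.1+ libraries and 6.50, 6.07 and 8.55 CPM in CD8 beta+ libraries (log2 fold change 3.65, edgeR adjusted p = 1.35e-09). The gamma constant genes Tcrg-C4 and Tcrg-C1 had log2 fold changes of 2.61 and 2.08 (edgeR adjusted p = 2.55e-06 and 9.78e-09). Tcrg-C2 had the highest level of the 5 in both groups, with means of 162.6 CPM in DN NK1.1+ and 87.2 CPM in CD8 beta+ libraries. Its log2 fold change, 0.90 (edgeR adjusted p = 4.34e-05), was the smallest of the 5. These gamma genes resemble each other, so that counts may have been split between them. Whether transcripts of the 5 genes came from rearranged receptor genes was not examined. Together the 5 genes took 47.1%, 47.8% and 44.8% of all receptor constant counts in DN NK1.1+ libraries and 9.63%, 10.3% and 13.2% in CD8 beta+ libraries.

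With the gamma-delta genes added to the denominator, the CD3 ratio no longer separated the groups. The 4 CD3 chains then had 1.6, 1.45 and 1.46 counts per receptor constant count in DN NK1.1+ libraries and 1.54, 1.52 and 1.75 in CD8 beta+ libraries. The mean log2 difference was -0.09 with a pooled SD of 0.0969 (exact permutation p = 0.3, adjusted p = 0.345). The chains did not move alike in this ratio: in the fit across all genes with all receptor constant counts as the scale, Cd3d and Cd247 were lower (log2 -0.59 and -0.56, edgeR adjusted p = 0.00189 and 0.0014), and Cd3e and Cd3g did not pass (log2 -0.19 and 0.23, edgeR adjusted p = 0.151 and 0.136). Counts of transcripts do not give the number of receptors on a cell.

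Adaptors and receptors that carry activating signals beside CD3 were higher in DN NK1.1+ libraries, with 4 of 5 rising and 0 falling, where 7.84% of all tested genes rose. Fcer1g, for the Fc receptor gamma chain, a relative of CD3 zeta, had 762.8, 774.9 and 917.5 CPM in DN NK1.1+ libraries and 54.6, 58.2 and 80.3 CPM in CD8 beta+ libraries (log2 fold change 3.67, edgeR adjusted p = 2.29e-09). Tyrobp, for the adaptor DAP12, was at 343 ± 37.5 CPM in DN NK1.1+ and 20.5 ± 6.57 CPM in CD8 beta+ libraries (SD, n = 3 each). Ncr1, for NKp46, which signals through CD3 zeta and the Fc receptor gamma chain, was at 273 ± 20.6 CPM in DN NK1.1+ and 0.485 ± 0.182 CPM in CD8 beta+ libraries (SD, n = 3 each). Cd247 thus fell in libraries where Fcer1g rose.

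Genes of signalling close to the receptor fell in 15 of 26 cases, 1 rose and 10 did not pass, where 5.99% of all tested genes fell and 7.84% rose. Their median log2 fold change was -0.51. Themis, for a T cell signalling protein, was at 9.23 ± 5.01 CPM in DN NK1.1+ and 386.6 ± 4.49 CPM in CD8 beta+ libraries (SD, n = 3 each; log2 fold change -5.40, edgeR adjusted p = 0.00141). Cd5 and Cd6, for related scavenger-type receptors that temper T cell signals, had log2 fold changes of -3.97 and -3.82 (edgeR adjusted p = 1.14e-11 and 7.94e-12). These decreases were larger than that of any of the 7 receptor genes. The call of Lcp2, for an adaptor of the same list, ended without DN NK1.1+ replicate 1.

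Kinases bound to the complex did not move alike. Lck, for the kinase that phosphorylates the CD3 motifs, fell with a log2 fold change of -0.57 (edgeR adjusted p = 7.65e-04), close to that of Cd3e. Zap70, for the kinase that docks on them, was at 113 ± 9.69 CPM in DN NK1.1+ and 109 ± 10.8 CPM in CD8 beta+ libraries (SD, n = 3 each; edgeR adjusted p = 0.844). Its relative Syk, the 1 gene of the list that rose, was at 97.5, 96.9 and 95.3 CPM in DN NK1.1+ libraries and 16.5, 16.3 and 11.0 CPM in CD8 beta+ libraries (log2 fold change 2.72, edgeR adjusted p = 1.13e-08). Lck, Zap70 and Syk were picked after their values were seen.

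**Figure D4:**
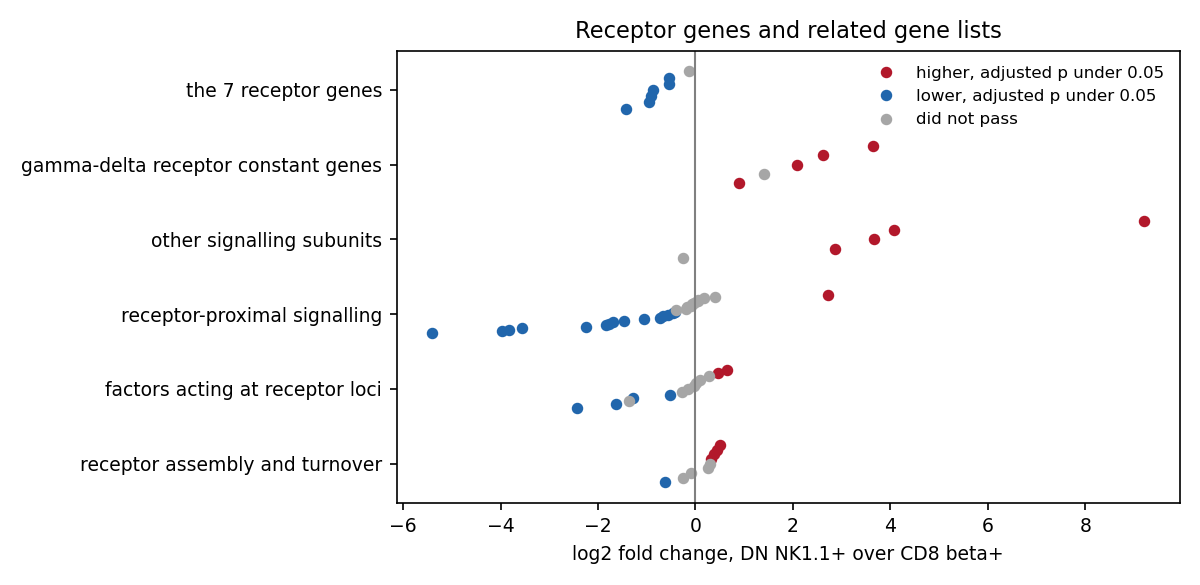
Log2 fold changes of DN NK1.1+ over CD8 beta+ libraries for the 7 receptor genes and for the tested genes of 5 related lists; each point is a gene, red for higher, blue for lower and grey for genes that did not pass the test. The receptor genes lie between -1.43 and -0.13, and the gamma-delta constant genes lie above 0.

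Of 13 transcription factors that act at the receptor loci, 4 fell, 2 rose and 7 did not pass, where 5.99% of all tested genes fell and 7.84% rose; 2 of 13 is not far from that share. Bcl11b, for a factor of T cell commitment, was at 54.65, 43.99 and 61.4 CPM in DN NK1.1+ libraries and 293.8, 300.8 and 272.2 CPM in CD8 beta+ libraries (log2 fold change -2.44, edgeR adjusted p = 2.22e-09). Lef1 and Tcf7, for related factors of early and memory T cells, had log2 fold changes of -1.62 and -1.29 (edgeR adjusted p = 0.00288 and 4.97e-04). In both, CD8 beta+ replicate 3 was the lowest library of its group, at 103.2 and 215.5 CPM. Of the 2 that rose, Gata3 (log2 fold change 0.46) lost its call without any 1 of the CD8 beta+ libraries or without DN NK1.1+ replicate 2.

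Of 9 genes of receptor assembly and turnover, 4 rose, 1 fell and 4 did not pass, beside the same shares over all tested genes. Pdia3, for a chaperone of protein folding, and Sla2, for an adaptor that dampens receptor signalling, rose by log2 0.45 and 0.51 (edgeR adjusted p = 0.00573 and 0.0149), and both calls ended without CD8 beta+ replicate 1 or 2, as Sla2's did without DN NK1.1+ replicate 1. The calls of the other 2 that rose, the chaperones Calr and Hspa5, ended without CD8 beta+ replicate 1 or 2 or DN NK1.1+ replicate 1 or 2. Calr also lost its call with RLE scaling and with upper quartile scaling (edgeR adjusted p = 0.0537 and 0.0686). Sla, for an adaptor that lowers receptor levels, fell by 0.63 on the log2 scale (edgeR adjusted p = 2.00e-04). Genes of receptor gene recombination and of the pre-receptor were near 0 in both groups. Rag2 had 0 counts in both, Rag1 had 0 in DN NK1.1+ and 1 in CD8 beta+ libraries, Dntt had 0 in DN NK1.1+ and 6 in CD8 beta+ libraries, and Ptcra had 1 in DN NK1.1+ and 3 in CD8 beta+ libraries. A total of 0 counts allows a level of up to 0.0817 CPM in DN NK1.1+ and 0.096 CPM in CD8 beta+ libraries, set by 3 counts over the group and covering counting error only.

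Patterns most like those of the receptor genes were sought among 5812 genes with a mean of at least 20 CPM, by the Euclidean distance between gene-centred log2 CPM over the 6 libraries. Closest to the mean of the 4 CD3 chains were Dtx3l (distance 0.122) and Sla (0.13), with log2 fold changes of -0.55 and -0.63. Closest to Trac were Ubash3a (0.172), Ifi206 (0.227) and Sh3kbp1 (0.232), with log2 fold changes of -1.47, -1.45 and -1.44. With 6 libraries in 2 groups, such a distance reflects mainly the size of the difference between the groups.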

How the data were processed

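Bulk RNA libraries of DN NK1.1+ lymphocytes and CD8 beta+ T cells (3 each) were analysed from 1 table of expected counts per gene deposited by the authors. The unit was inferred from the values, which hold at most 2 decimals, 8.43% of them not whole, and differ in their totals. The library kit was Tecan's Solo for mouse, per the labels' protocols. The submitters' processing notes list build mm10 and Cell Ranger 7.1.0, a single-cell tool; for these bulk libraries, neither aligner, counter, strand use nor annotation is stated in the labels used here. Ensembl IDs stand under the heading for symbols and symbols under the heading for genes. All 55450 IDs and symbols matched GENCODE M21, from which positions and lengths were taken.

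Expected counts were rounded. Genes were kept by filterByExpr (count 10, total 15), which left 13171, and were tested with edgeR 4.0.16 in R 4.3.3 (TMM, robust quasi-likelihood fit, group alone, Benjamini-Hochberg, threshold 0.05). SE were derived from the F statistic. Fits relative to a gene or gene set used its counts as library size. Ratios within libraries were compared by exact two-sided permutation of log2 ratios. The fits were tested on simulated data. Alternatives were RLE, upper quartile and no scaling, other filters, DESeq2 1.42.0, limma-voom (limma 3.58.1), the replicate number as a block, libraries left out and other denominators. The 7 genes and all lists were chosen with earlier results of these data known. Named genes were the 7, the nearest patterns and, per related list, the 3 most changed called genes of 5 CPM or more; genes named beyond this rule were picked after their values were seen. Values of 1 gene with a near pattern and of 1 related-list gene are not reported here.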

Additional observations from a re-analysis of the deposited data

How the results depend on the processing

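The fold changes of the 7 genes kept their direction and their side of the threshold in the 14 alternative fits (scalings, filters, DESeq2, limma-voom, replicate block, each library left out). Trac ran from -1.50 to -1.38, Cd3d from -1.07 to -0.86, Cd247 from -0.97 to -0.87, Trbc2 from -0.96 to -0.79, Trbc1 from -0.63 to -0.49, Cd3e from -0.58 to -0.50 and Cd3g from -0.20 to -0.06. Leaving out a library gave 681 to 1093 higher and 499 to 883 lower genes against 1033 and 789, the lowest without CD8 beta+ replicate 1, and 10 to 16 higher and 19 to 23 lower genes in the related lists against 15 and 20. Without a library, the CD3 to constant ratio lay between 0.59 and 0.73 (Cd3d 0.02 to 0.24, Cd3e 0.51 to 0.61, Cd3g 0.89 to 1.08, Cd247 0.13 to 0.25), and the difference in the Trbc1 share, DN NK1.1+ minus CD8 beta+, lay between 4.2 and 6.85 percentage points. The share of lower among all called genes was 43.3%, and 37.2% with library size only.

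The denominator changed the ratio most, by construction. Over Trac alone the fits also called Cd3d (0.46) and Cd247 (0.50) as higher, where 79.5% of all tested genes were higher. The log2 difference of the 4 chains over Trac was 0.97 (Cd3d 0.46, Cd3e 0.87, Cd3g 1.29, Cd247 0.50). Over Trbc1 and Trbc2 it was 0.27 (Cd3d -0.23, Cd3e 0.18, Cd3g 0.60, Cd247 -0.20); the fit gave -0.22 for Cd3d, -0.19 for Cd247 and 0.18 for Cd3e, which no longer passed, with 232 genes lower against 135. With gamma-delta constants it was -0.09 (Cd3d -0.6, Cd3e -0.19, Cd3g 0.23, Cd247 -0.56). The fit gave -0.59, -0.19, 0.23 and -0.56, with 3731 genes higher against 9575 and 363 lower. Uncalled genes of the related lists turned sign near 0. Tox was at 0.02 with library size only, and Runx3 at -0.02 with upper quartile scaling. Without a library, Runx3 lay between -0.04 and 0.08, Tox between -0.12 and 0.02, Zap70 between -0.04 and 0.1, Nck1 between -0.15 and 0.0 and Ptprc between -0.01 and 0.13.

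Replicate numbers are shared between the groups, but nothing says that a number marks a shared mouse or day. Deviations of same-numbered libraries from their group means had r of -0.05, 0.189 and 0.256 over 13171 genes. DN NK1.1+ replicates 2 and 3 matched the CD8 beta+ library of their own number best, and replicate 1 matched replicate 2. With 3 libraries per group this cannot decide whether the numbers mark pairs. As the labels do not give pairs, the main fit used none and the replicate block was an alternative. With the replicate block, 1137 genes were higher and 945 lower, and Trac was at -1.42.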

Other observations

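Markers of other T cell subsets were few in these libraries. Zbtb16, whose product PLZF marks innate-like T cells, had 8.79, 1.76 and 13.5 CPM in DN NK1.1+ libraries and 2.21, 0.0722 and 1.75 CPM in CD8 beta+ libraries, with overlap between the groups. Trav11, an alpha segment of invariant natural killer T cells, had 0 counts in all 6 libraries, and its near copy Trav11d had 11 counts in DN NK1.1+ and 42 in CD8 beta+ libraries. Of 3 markers of CD4 T cells, Cd40lg was highest, at 7.66 CPM in DN NK1.1+ and 3.93 CPM in CD8 beta+ libraries.

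Summed marker levels of other cell types were uneven, and do not show by themselves that such cells were present. Epithelial markers, led by the casein gene Csn2, summed to 208, 555 and 1170 CPM in DN NK1.1+ libraries and 602, 377 and 509 CPM in CD8 beta+ libraries. Of the 6 tested, 1 rose and 0 fell, where 7.84% of all tested genes rose. Epcam, of the same list, was at 30.8, 32.8 and 32.3 CPM in DN NK1.1+ libraries and 7.41, 6.72 and 4.02 CPM in CD8 beta+ libraries. B cell markers, led by Ighm, summed to 256 to 301 CPM in DN NK1.1+ and 171 to 247 CPM in CD8 beta+ libraries. Myeloid markers, led by Itgax, which NK cells also express, summed to 363 to 427 CPM in DN NK1.1+ and 170 to 256 CPM in CD8 beta+ libraries. Markers of other innate lymphoid cells (ILC2 and ILC3), led by Il7r, summed to 72.5 to 114 CPM in DN NK1.1+ and 116 to 433 CPM in CD8 beta+ libraries. Stromal and endothelial markers, led by Pecam1, summed to 48.7 to 162 CPM in DN NK1.1+ and 44.4 to 98.4 CPM in CD8 beta+ libraries. The part of any such cells in the receptor gene changes was not tested.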
